A study of Maylandia zebra with 2 samples.

Results

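Ribosomal protein genes were followed through single nuclei of the oral lamina, a layer of soft tissue next to developing replacement teeth, taken from a Lake Malawi cichlid, *Maylandia zebra*. Features were chosen by name alone: a symbol that, with case ignored, begins with rps or rpl followed by a digit. This took 93 of the 28622 features in the deposited matrix. RNA was counted in sorted, DAPI-stained nuclei from 2 samples, the upper jaw and the lower jaw, with 1 library each. The matrix holds both jaws together, its barcodes end in suffix 1 or suffix 2, and no source used here ties a suffix to a jaw. All nuclei are therefore 1 pooled sample without replicates, no p is given, and every 95% interval in parentheses covers counting error only. No source used here gives the age, sex or number of the fish, and no treatment is named.

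A ribosome is built from a small subunit, which reads the messenger RNA, and a large subunit, which joins the amino acids, and each is a folded ribosomal RNA held by many proteins. The genes named rps code for proteins of the small subunit and those named rpl for proteins of the large one. In vertebrates most of their transcripts begin with a run of pyrimidines, the TOP motif, through which growth signals passing through the kinase TOR adjust their translation together. Finished messages are exported and translated in the cytoplasm, so in isolated nuclei they are counted away from the site where they work.

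The name pattern did not take ribosomal proteins alone. By symbol, 77 of the 93 features were structural ribosomal proteins, 45 of the large and 32 of the small subunit. A further 11 were ribosomal protein S6 kinases, signalling enzymes that are not part of the ribosome, and 5 carried paralogue-like names such as *rpl22l1*. The structural features held 22409 UMIs, the tags that mark each captured RNA molecule once, which is 94.2% of the UMIs of the 93 features. The S6 kinases held 1080 UMIs and the paralogue-like features 295. The 3 sets are described apart, and the share below is that of the 77 structural features in all UMIs of a nucleus or group. No sequence or coordinate is shown, since no source used here names the genome build.

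The authors kept 1296 of 1381 barcodes, with 1423040 UMIs in all, a median of 832.5 UMIs and a range of 367 to 5326 per nucleus. Suffix 1 had 754 kept nuclei and suffix 2 had 542, and 1 barcode sequence occurred in both suffixes. Over all kept nuclei 3 UMIs, the floor used for a count of 0, equal 2.11 CPM (UMI counts scaled to a common total). The authors' 6 classes were set against marker lists. The epithelial, mesenchymal and taste bud lists were highest in the classes of those names, and the pigment list in the Pigmented class although its member *tyrp1b* had 0 UMIs. The pigment list held *mitfa*, *pnp4a*, *pmela* and *tyrp1b*, and also *stab1* and *csf1ra*, which are macrophage genes too. Their part in its sum was not set apart. The immune list reached 2538 CPM in the Pigmented class and 2202 CPM in the Immune class. The authors' clusters were made from expression that may include the ribosomal protein genes themselves, so differences among clusters are descriptions.

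Structural ribosomal protein transcripts were a small part of the RNA counted in these nuclei, 1.57% (1.55–1.60) of all UMIs. Large subunit genes made up 0.894% and small subunit genes 0.681%. The structural share was 1.60% (1.57–1.63) in suffix 1 and 1.54% (1.51–1.57) in suffix 2. Of the 77 structural features, 72 had at least 20 UMIs and 1 (*rpl10a*) had none, with an interval that reaches 2.59 CPM. *rpl14* and *RPS20* had 1 UMI each. The cause of these low counts was not tested. Structural features made up 0 of the 200 features with the most UMIs, 9 of the 500 and 43 of the 1000. The median nucleus had 11 structural UMIs, and 14 nuclei had none.

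The structural members with the most UMIs stood close together in rank. The counts are not scaled to transcript length and rank the features in this library only. *rpl17*, a large subunit protein gene, had 784 UMIs or 551 CPM (513–591), with 509 CPM in suffix 1 and 601 CPM in suffix 2. *rps6*, whose protein is the substrate that gave the S6 kinases their name, had 666 UMIs or 468 CPM (433–505), with 452 CPM in suffix 1 and 487 CPM in suffix 2. *rps2*, a small subunit protein gene, had 657 UMIs or 462 CPM (427–498). Each of these 3 was found in 30.9% to 31.6% of the nuclei, and no nucleus held more than 15 of their UMIs. In order of UMIs they were followed by *RPS27*, *rpl31*, *rps8b*, *rps3a*, *rps14*, *rpl5b*, *RPL27A*, *rpl23*, *rpl10*, *rpl18*, *rps26*, *rps13*, *rps24*, *rpl15*, *rpl34*, *rps9* and *rps7*, from 593 UMIs down to 364. The 20 together held 42.3% of the structural UMIs. Between the suffixes the ratio of suffix 1 to suffix 2 had a median of 1.05 over the 72 members. Its interval lay above 1 for 10 of them and below 1 for 2. No such count over all features stands beside it, so it is not read as a result about the members.

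Epithelial cluster 3 had the highest structural share of the 12 clusters and Immune cluster 9 the lowest. In cluster 3 the share was 2.09% (2.01–2.18), against 1.53% in all other kept nuclei, a ratio of 1.36 (1.30–1.43). Immune cluster 2 had 1.88% (1.82–1.95), a ratio of 1.23 (1.18–1.27), and Epithelial cluster 0, the deepest, 1.66% (1.62–1.70), a ratio of 1.08 (1.05–1.11). Epithelial cluster 1 had 1.56% against 1.58% in other nuclei, a ratio of 0.991 (0.949–1.04) whose interval spans 1. Lower shares were found in Epithelial cluster 4 (1.29%, ratio 0.802, 0.763–0.842), Epithelial cluster 7 (1.38%, ratio 0.869, 0.814–0.927), the Pigmented class (1.22%, ratio 0.763, 0.718–0.810) and the Mesenchymal class (1.31%, ratio 0.823, 0.780–0.868). The smallest groups were lowest, with 1.03% (0.910–1.16) in the 21 Mature TB nuclei, 1.01% (0.892–1.14) in the 18 Immature TB nuclei and 0.990% (0.862–1.13) in the 35 nuclei of cluster 9. TB stands for the taste bud classes as the authors abbreviated them.

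**Figure D1:**
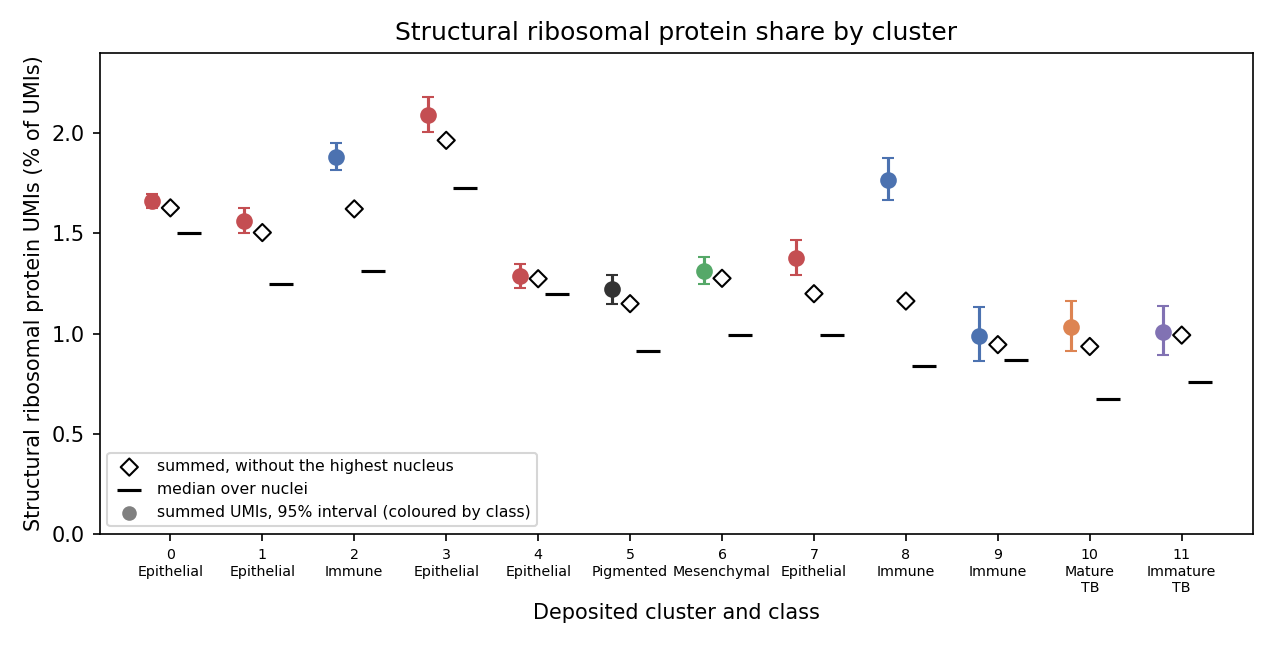
Structural ribosomal protein UMIs as a percent of all UMIs (vertical axis) in each deposited cluster (horizontal axis, with its class): filled points are summed UMIs with 95% Clopper-Pearson intervals for counting error, diamonds the same sum without the nucleus of highest share, dashes the median over nuclei. With both suffixes together, cluster 3 is highest on all 3 measures. Cluster 8 is at 1.77% as a sum, 1.16% without 1 nucleus and 0.839% as a median.

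The summed share of some clusters rested on very few nuclei. Immune cluster 8 had a summed share of 1.77% (1.66–1.87), but 1 of its 50 nuclei held 393 of its 1092 structural UMIs, 36.0% of them. Without that nucleus the share was 1.16%. The ratio of cluster 8 was 1.13 with all nuclei and 0.782 with the highest nucleus of each cluster left out. The median nucleus of cluster 8 had a share of 0.839%, against 1.25% in all other nuclei. In cluster 2 a single nucleus held 461 of 3155 structural UMIs, and without it the share was 1.62%. With all nuclei of over 5% left out, the ratio of cluster 2 was 0.945, below that of the other nuclei. Cluster 3 kept a ratio of 1.25 with those nuclei left out, and its median nucleus had 1.72%, against 1.19% in the others.

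The suffixes did not rank the clusters alike. In cluster 3 the share was 2.42% (2.30–2.53) in suffix 1 and 1.43% (1.31–1.56) in suffix 2, and within suffix 2 alone its ratio was 0.926 (0.844–1.01), whose interval spans 1. The median nucleus of cluster 3 had 1.91% in suffix 1. In suffix 2 it had 1.41%, against a median of 1.15% over all suffix 2 nuclei. The suffix 2 medians of clusters 0 and 1 were higher, at 1.51% and 1.45%, so cluster 3 was not highest there. In cluster 8 the share was 2.31% in suffix 1 and 0.878% in suffix 2, and in cluster 2 it was 1.66% in suffix 1 and 2.24% in suffix 2. Cluster 0 differed less, with 1.73% (1.667–1.785) in suffix 1 and 1.62% (1.571–1.665) in suffix 2, and so did cluster 4, with 1.29% and 1.28%. Cluster 1 had 1.37% (1.29–1.45) in suffix 1 and 1.84% (1.74–1.95) in suffix 2. Its ratio, 0.991 over both, was 0.838 in suffix 1 alone and 1.22 in suffix 2 alone. Cluster 5 had 1.12% (1.03–1.22) in suffix 1 and 1.36% (1.24–1.48) in suffix 2. Cluster 10 had 1.44% (1.24–1.66) in suffix 1 and 0.601% (0.472–0.753) in suffix 2. The intervals of the suffixes thus did not overlap in clusters 0, 1, 2, 3, 5, 8 and 10, by a narrow margin in cluster 0.

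Both subunits contributed in near-constant proportion. Small subunit genes gave 43.2% of the structural UMIs over all nuclei. By cluster they gave from 39.4% (36.5–42.3) in the Pigmented class to 45.7% (43.1–48.3) in the Mesenchymal class. The interval of the Pigmented class was the only one of the 12 that did not include the value of all nuclei.

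Few single members departed 2-fold from the other nuclei in any cluster. Among features with at least 20 UMIs, each member's CPM in a cluster was set against that in all other kept nuclei, with a difference of at least 2-fold counted. Of the 72 structural members, 0 were higher and 0 lower in cluster 0, where 3.8% of all 9333 features were higher and 16.6% lower. In cluster 1 also 0 were higher and 0 lower, beside 5.76% and 19.9% of all features. Cluster 2 had 3 members higher and 1 lower, beside 12% and 19.5%. Cluster 3 had 2 higher and 3 lower, beside 8.19% and 17.2%. Cluster 4 had 0 higher and 5 lower, beside 13.7% and 24.5%, and the Pigmented class 0 higher and 9 lower, beside 14.6% and 19.2%. The Mesenchymal class had 0 higher and 2 lower, beside 10.6% and 18.1%. Cluster 7 had 1 higher and 6 lower, beside 9.29% and 13.6%, and cluster 8 had 2 higher and 3 lower, beside 14.1% and 11.8%. These counts carry no test. The features behind the percentages are not matched with the members for their UMIs.

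Most members lay on the same side of 1 as the sum of their cluster. In cluster 3 the ratio was above 1 for 63 of the 72 members, with a median of 1.36 beside 0.883 over all features. In cluster 2 it was above 1 for 58, with a median of 1.20 beside 0.897. In the Pigmented class it was above 1 for 14, with a median of 0.767 beside 0.825, and in the Mesenchymal class for 13, with a median of 0.825 beside 0.825. In cluster 4 it was above 1 for 18, with a median of 0.805 beside 0.828. In the Mesenchymal class and cluster 4 the median over all features was thus as low or nearly so. A ratio below 1 there is not particular to the members.

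**Figure D2:**
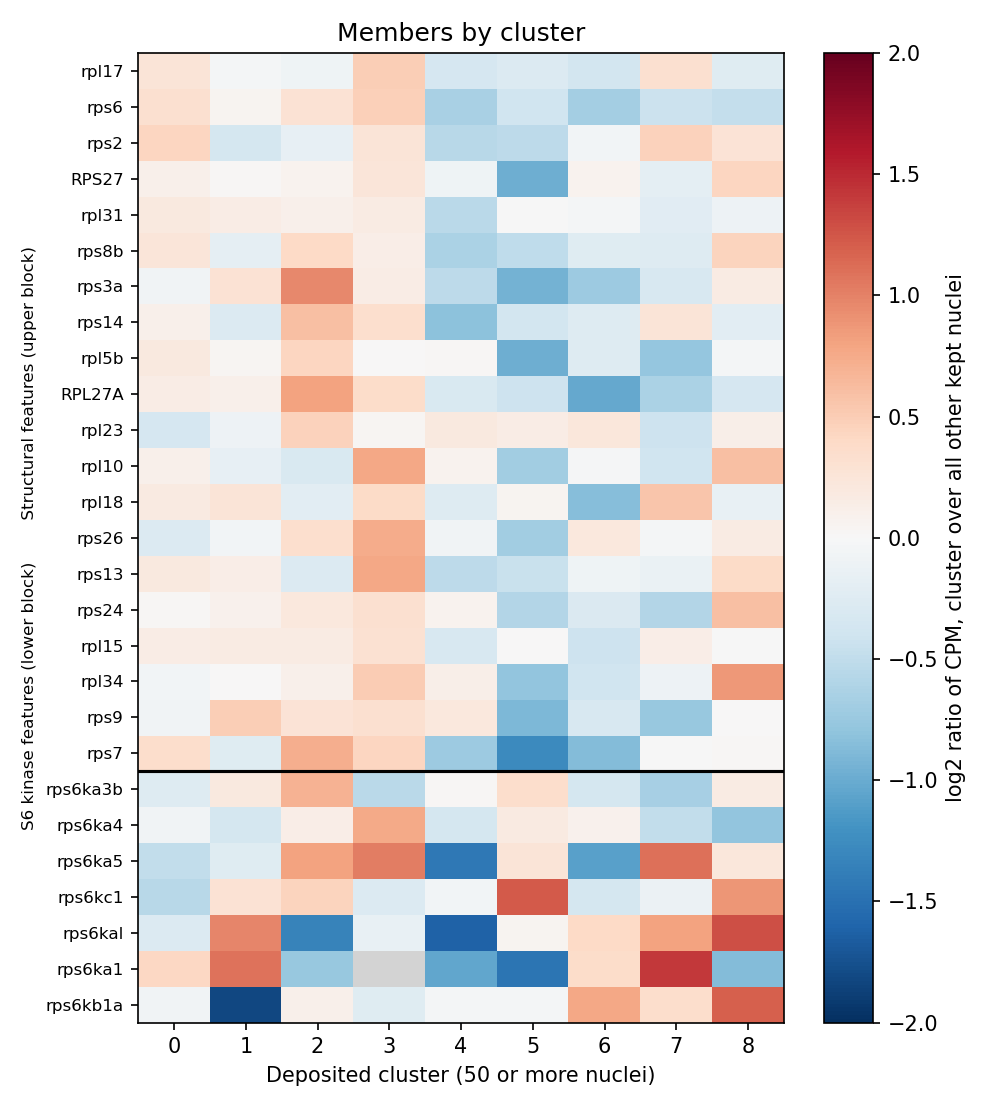
Log2 ratio of CPM in each deposited cluster of 50 or more nuclei over all other kept nuclei (colour, red higher, blue lower) for the 20 structural members with the most UMIs (above the line) and the 7 S6 kinases with at least 20 UMIs (below it); a grey cell is a feature with 0 UMIs in that cluster. The structural rows are mostly red in cluster 3 and mostly blue in clusters 4, 5 and 6, while the kinase rows, which rest on fewer UMIs, share no colour.

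The most abundant members were above other nuclei in cluster 3 but did not all follow the sum elsewhere. *rpl17* stood at 620.5 CPM in cluster 0, 540.2 in cluster 1, 525 in cluster 2, 756 in cluster 3, 447 in cluster 4, 459.5 in cluster 5, 436 in cluster 6, 679 in cluster 7 and 469 in cluster 8. Its ratio in cluster 3 was 1.41 (1.11–1.79). In cluster 2 its ratio was 0.947 (0.750–1.18), where the sum was higher, and in cluster 7 it was 1.25 (0.912–1.67), where the sum was lower. *rps2* likewise stood at 0.893 (0.687–1.15) in cluster 2 and 1.37 (0.987–1.87) in cluster 7. These 4 intervals span 1. *rps6* was also highest in cluster 3, at 632 CPM, with a ratio of 1.39 (1.06–1.79), and lower in the Mesenchymal class, at 299 CPM, with a ratio of 0.621 (0.424–0.881). *rps3a*, a small subunit protein gene, reached 609 CPM in cluster 2, a ratio of 1.94 (1.54–2.42), and 186 CPM in the Pigmented class, a ratio of 0.517 (0.299–0.837).

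The member with the largest departure was *rps12*, a small subunit protein gene. In cluster 2 it had 51 UMIs in 26 nuclei or 304 CPM, against 82.0 CPM in all other nuclei, a ratio of 3.71 (2.60–5.24). The suffixes gave 26 and 25 of those UMIs. With nuclei of over 5% structural share left out it had 30 UMIs there and a ratio of 2.64 (1.68–4.04). In the Pigmented class *rps12* had 2 UMIs, a ratio of 0.192 (0.0230–0.705). *rps15*, another small subunit gene, had 412 CPM in cluster 3 against 191 CPM elsewhere, a ratio of 2.15 (1.52–2.98), and 32 of its 43 UMIs there came from suffix 1. *rps19* was highest of the members in cluster 1, at 246 CPM against 128 CPM, a ratio of 1.92 (1.30–2.76). *rpl4*, a large subunit gene, was lowest in cluster 4, at 66.0 CPM against 228 CPM, a ratio of 0.289 (0.131–0.556), and remained so without the nuclei of over 5% (0.311, 0.141–0.599). *rps25* had a ratio of 1.84 (1.17–2.77) in cluster 8 that was 1.18 (0.622–2.06) without those nuclei. Most of the other highest and lowest members had intervals that included 1. *rpl13a* stood at 0.532 (0.293–0.895) in cluster 1 and at 0.343 (0.0927–0.889) in cluster 8, and *rpl27* at 3.49 (1.48–7.05) in cluster 9 on 8 UMIs.

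Genes kept in more than 1 copy were read mainly from 1 copy, with an exception. Of the *rpl5* pair, *rpl5b* had 474 UMIs and the feature named *RPL5* 52. Of the features named *rpl19*, one had 263 UMIs and the other 25. *RPS27* had 593 UMIs, *rps27.2* 29 and the paralogue-like *rps27l* 40. The pair of *rpl22* and *rpl22l1*, whose proteins are paralogues, was more even, with 172 and 238 UMIs. Reads of near-identical copies can be split or dropped by counting, so these divisions are uncertain.

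The share of a nucleus varied far more than that of a cluster. Its 5th percentile was 0.276%, its median 1.23%, its 95th percentile 4.03% and its 99th percentile 7.84%, and the highest nucleus reached 30.9%. Across the 1296 nuclei the share had a Spearman rho of -0.0523 with depth and 0.0438 with the authors' cyto score, a rank deposited without its rule. Depth and cyto rank themselves had a rho of 0.438. The points share 2 libraries, depth is the denominator of the share, and the cyto score may use the same counts, so these are descriptions without a p. After thinning to 500 UMIs, which left out 182 shallower nuclei, rho was -0.0413 with depth and 0.0491 with cyto rank. Such weak values are no finding. Within clusters rho with depth ran from -0.240 in cluster 4 to 0.194 in cluster 8, and rho with cyto rank from -0.361 in cluster 7 to 0.156 in cluster 4.

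**Figure D3:**
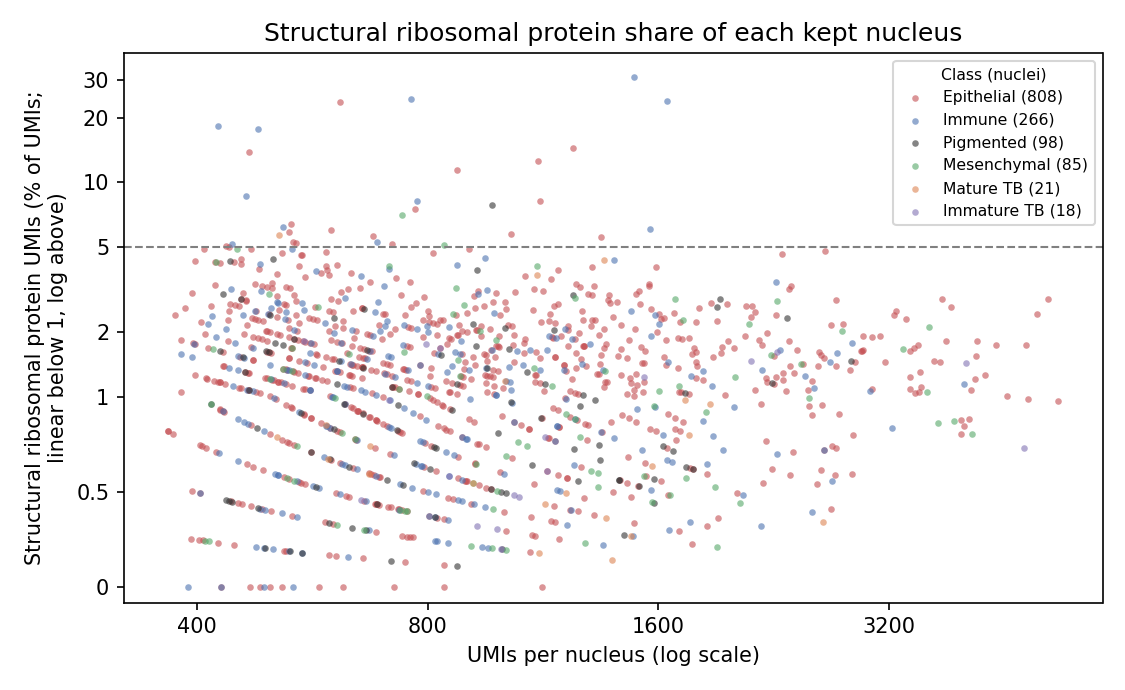
Structural ribosomal protein share of each of the 1296 kept nuclei (vertical axis, linear below 1% and logarithmic above) against its UMIs (horizontal axis, log scale), coloured by class; the dashed line marks 5%. Nuclei over the line lie between 426 and 1642 UMIs and belong to several classes, and the slanted rows at low depth are whole numbers of UMIs.

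Sums over 10 bins of equal numbers of nuclei showed the same weak relation with depth and a bulge in the cyto rank. The shallowest bin had a share of 2.00% (1.89–2.12) and the deepest 1.46% (1.42–1.49). With nuclei of over 5% left out, the values were 1.67% and 1.46%, and the lowest was 1.22%, in the fifth bin. Along the cyto rank the share was 1.36% (1.29–1.44) in the lowest bin, 2.00% (1.92–2.08) in the third and 1.47% (1.43–1.52) in the highest. Without nuclei of over 5% the third bin had 1.30%, and the highest of the 10 was then 1.54%, in the sixth bin. None of the nuclei over 5% lay in the upper 3 bins of cyto rank or in the deepest bin of UMIs.

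**Figure D4:**
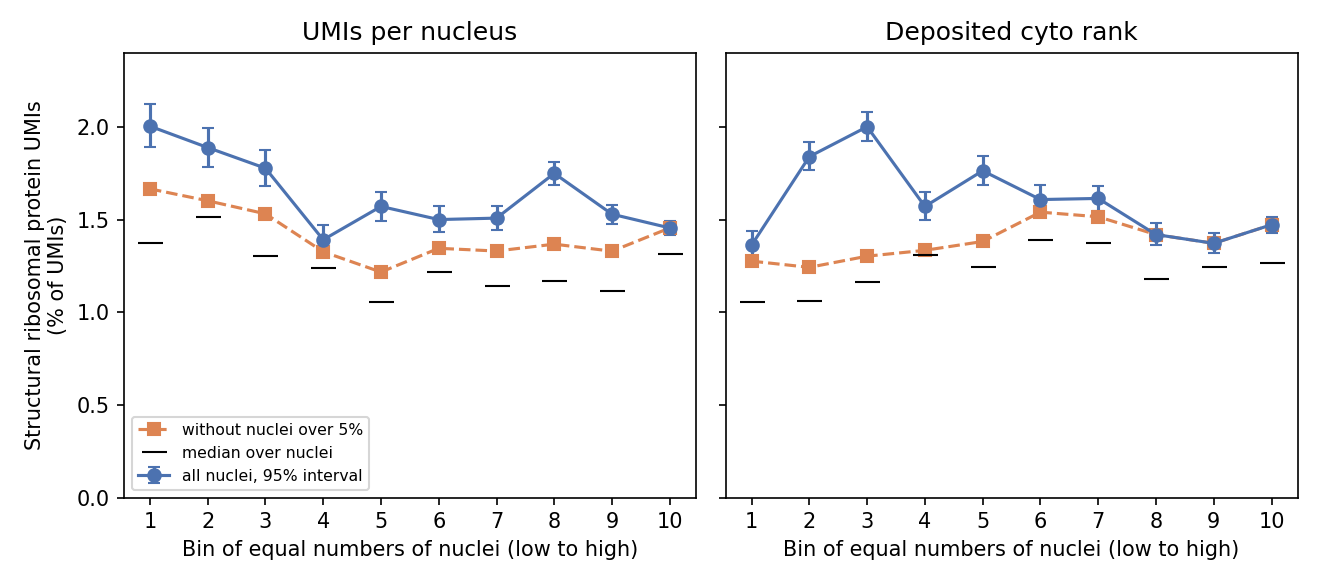
Structural ribosomal protein share (vertical axis, percent of UMIs) in 10 bins of the kept nuclei ordered by UMIs (left) and by deposited cyto rank (right): circles are summed UMIs with 95% intervals for counting error, squares the sum without nuclei over 5%, dashes the median over nuclei. The circles stand above the squares where such nuclei lie, most at the third bin of cyto rank, with 2.00% and 1.30%.

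A small set of nuclei was very rich in ribosomal protein transcripts. A share of over 5%, a line chosen after the values were seen, was met by 32 nuclei, 2.47% (1.69–3.47) of those kept. The nuclei nearest the line had 5.05% above it and 4.99% below it. These 32 nuclei held 2858 structural UMIs, 12.8% of all. Suffix 1 gave 22 of them and suffix 2 gave 10. Clusters 2 and 3 gave 9 each, cluster 1 gave 5, clusters 0, 6 and 8 gave 2 each, clusters 5, 7 and 10 gave 1 each, and clusters 4, 9 and 11 gave none. They had a median of 702.5 UMIs, against 840.0 in the other nuclei, a median cyto rank of 0.335 against 0.509, and a median of 37 structural features detected against 9. Scrublet made 1 doublet call over all kept nuclei, 0.0772% of them. It did not fall among the 32, but 1 call is too few to say anything about them.

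Within these nuclei nearly all structural members were higher, as the choice of the nuclei by their sum requires, and no count is read from it. The make-up of the sum was close to that of the other nuclei but not equal. *rps12* gave 1.29% of the structural UMIs in the 32 nuclei and 0.598% in the others, a ratio of 2.16 (1.45–3.16). *rps29*, a small subunit gene, gave 2.34% and 1.35%, a ratio of 1.74 (1.31–2.29). *rps6* gave 1.75% and 3.15%, a ratio of 0.555 (0.408–0.741). The interval lay above 1 for 9 of 72 members and below 1 for 8, with no count over other features beside it. In the 32 nuclei 1 nucleus gave 10 of the 37 *rps12* UMIs, and 1 gave 19 of the 67 *rps29* UMIs. The intervals do not cover such spread among nuclei. Cluster 2, where *rps12* had a ratio of 3.71, gave 9 of the 32 nuclei. The difference in *rps12* cannot be told apart from this mix of clusters.

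Other translation genes, which had no part in choosing those nuclei, were set against the UMIs outside the structural features. Ribosomal proteins that the name pattern misses were the highest list. Their 7 matched features held 1.23% of such UMIs in the 32 nuclei and 0.141% in the others, a ratio of 8.73 (7.67–9.91). All 7 were at least 2-fold higher, beside 18.6% of 9261 features higher and 6.64% lower, with a median of 9.29 beside 0.683 over those features. Among them *rplp1*, a protein of the ribosomal stalk, had a ratio of 11.7 (9.11–14.9), *rpsa*, a small subunit protein, 9.00 (6.41–12.4) and *rack1*, a scaffold protein on the small subunit, 3.25 (1.94–5.16). The ratio of the list was 7.57 (6.42–8.88) in suffix 1 and 11.0 (8.88–13.6) in suffix 2. It was 6.63 (5.48–7.97) among Epithelial and 16.8 (13.6–20.7) among Immune nuclei. Without the 5 nuclei of highest share it was 5.36 (4.49–6.36).

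The elongation factor list followed at a lower ratio. The list held 0.288% of UMIs in the 32 nuclei and 0.0507% in the others, a ratio of 5.67 (4.33–7.32), and 3.44 (2.35–4.87) without the 5 nuclei of highest share. Each count of members below stands beside 18.6% of 9261 features at least 2-fold higher and 6.64% lower. Those features are not matched with the lists for their UMIs. Of 4 measured members 4 were at least 2-fold higher, 1 of them on 1 or 2 UMIs. *eef1g* stood at 4.05 (2.54–6.18), *eef1b2* at 6.65 (4.17–10.2) and *eef1da* at 8.87 (4.90–15.1). These 3 code for subunits of the factor that recharges the tRNA-carrying factor with GTP. The remaining measured member, *eef1db*, stood at 5.54 (0.632–22.6). *eef2b* had 1 UMI over all kept nuclei, too few to be measured, so the ratio of the list does not speak for it. Initiation factors had a ratio of 2.14 (1.77–2.57), with 22 of 42 at least 2-fold higher, 11 of those on 1 or 2 UMIs. *eif3ha*, a subunit of the factor that binds the small subunit, stood at 2.28 (1.26–3.80), *eif4g3a*, a scaffold of the cap-binding complex, at 1.28 (0.412–3.03) and *eif2d* at 1.93 (0.768–4.05). Oxidative phosphorylation genes, which code for the respiratory chain, had a ratio of 1.96 (1.54–2.46), with 24 of 49 higher, 16 of those on 1 or 2 UMIs. The 49 members had 76 UMIs in these nuclei, too few for any of them to be called lower. Ribosome biogenesis genes, which assemble the subunits in the nucleolus, had 1.85 (1.19–2.75), with 5 of 13 higher, 3 of those on 1 or 2 UMIs. With 0 UMIs none of the 13 could be called lower. The list held 25 UMIs in these nuclei. Of those UMIs 6 were of *npm1a*, a nucleolar chaperone gene, at 11.1 (3.80–26.8), and without it, an alternative chosen after seeing the data, the list had 1.47 (0.878–2.31), whose interval spans 1. *ncl*, which codes for a nucleolar RNA-binding protein, stood at 1.05 (0.214–3.11), *dkc1*, a pseudouridine synthase gene, at 0.847 (0.102–3.12) and *nop56*, of the particle that methylates ribosomal RNA, at 0.968 (0.116–3.57).

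The intervals of mitochondrial ribosomal proteins, the TOR pathway and the S6 kinases spanned 1 in the same nuclei. The mitochondrial ribosomal proteins had a ratio of 1.28 (0.848–1.86), with 5 of 17 at least 2-fold higher, 4 of them on 1 or 2 UMIs. Their ratio was 1.62 (1.03–2.43) in suffix 1 and 0.574 (0.156–1.48) in suffix 2. The TOR pathway had 1.11 (0.775–1.54), with 3 of 13 higher. Beside the 18.6% of all features that were higher, neither count is a result about these lists. *rptor*, the scaffold of TOR complex 1, stood at 1.02 (0.542–1.76). The S6 kinases had 1.03 (0.610–1.64), with 0.0796% of UMIs in the 32 nuclei and 0.0771% in the others. The suffixes differed in direction, with 0.643 (0.277–1.28) in suffix 1 and 1.92 (0.916–3.57) in suffix 2, and 1 nucleus of suffix 2 held 6 of the 18 kinase UMIs. Their members' median was 0.314, since 3 of the 7 measured had 0 UMIs in these nuclei. The paralogue-like features had 6.39 (4.17–9.46), and all 28 of their UMIs there were of *rpl22l1*, at 8.13 (5.27–12.1). Without the 5 nuclei of highest share the paralogue-like ratio was 3.0 (1.48–5.45). It was 3.68 (1.66–7.15) among Epithelial and 9.35 (5.09–16.3) among Immune nuclei.

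Several of these lists, the first 3 among them, went with the structural share over the bins of nuclei. In 7 bins of rising structural share, the ribosomal proteins outside the name pattern made up 0.0532%, 0.0802%, 0.129%, 0.169%, 0.235%, 0.344% and 1.23% of the UMIs outside the structural features. The elongation factors went with them, at 0.0223% (0.0155–0.0312) in the 169 nuclei of up to 0.5% and at 0.121% (0.0969–0.149) in the 89 nuclei of 3 to 5%. The initiation factors were at 0.192% in the lowest bin, 0.339% in the bin of 3 to 5% and 0.527% above 5%. The rise was not particular to these 3 lists. From the lowest bin to the highest, oxidative phosphorylation genes went from 0.133% to 0.336%. Ribosome biogenesis genes went from 0.0394% to 0.111% and paralogue-like features from 0.00722% to 0.124%. Mitochondrial ribosomal proteins stood at 0.0840% and 0.124%, and the TOR pathway at 0.156% and 0.159%. The S6 kinases stayed between 0.0631% and 0.0811% in all 7 bins, with intervals that overlap. The bins share nuclei with the choice above and are a description.

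**Figure D5:**
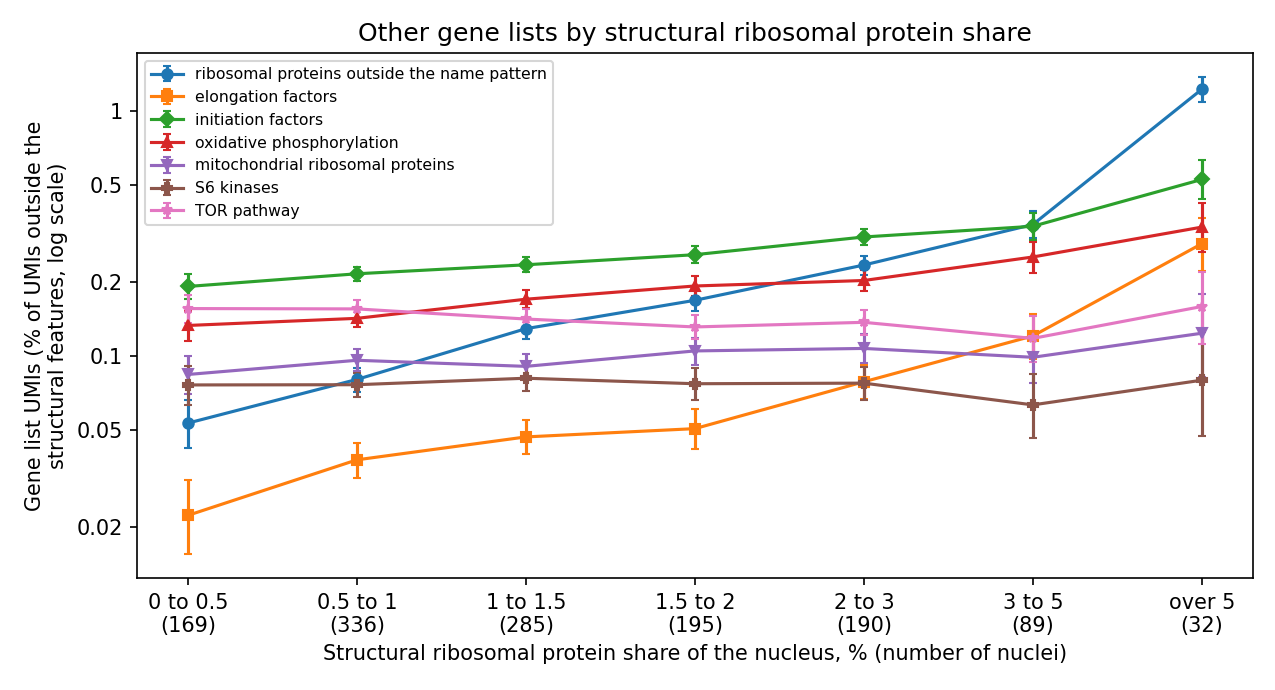
UMIs of 7 gene lists as a percent of UMIs outside the structural ribosomal protein features (vertical axis, log scale, 95% Clopper-Pearson intervals) in bins of nuclei by structural share (horizontal axis, number of nuclei in parentheses). Ribosomal proteins outside the name pattern run from 0.0532% to 1.23%, elongation factors from 0.0223% to 0.288% and oxidative phosphorylation genes from 0.133% to 0.336%. The S6 kinases stay between 0.0631% and 0.0811%.

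Markers of the classes were also measured in the 32 nuclei. The immune list stood at 1846 CPM in them and 914 CPM in the others, and the epithelial list at 21173 CPM and 16817 CPM. The pigment list stood at 157 CPM and 307 CPM, and the red cell list at 0 and 12.9 CPM. Their part in the result was not tested.

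The S6 kinases, which the name pattern took in, showed no common pattern over the clusters. They made up 0.0759% (0.0714–0.0806) of UMIs, and 602 of 1296 nuclei had at least 1 of their UMIs. Of 11 features 7 had at least 20 UMIs and 3 had none. *rps6ka3b*, named for a kinase of the family that acts downstream of ERK in mammals, gave 597 of the 1080 UMIs. In Immune cluster 2 the kinases were at 0.101% against 0.0726% in other nuclei, a ratio of 1.39 (1.17–1.64), and in cluster 0 at 0.0681% against 0.0796%, a ratio of 0.856 (0.748–0.977). The structural share lay on the same side of 1 in cluster 2, with a ratio of 1.23, and on the other side in cluster 0, with 1.08. The kinase intervals of the other 10 clusters spanned 1. *rps6ka3b* stood at 633 CPM in cluster 2, a ratio of 1.62 (1.30–2.00), and at 297 CPM in cluster 3, where the structural genes were highest, a ratio of 0.691 (0.465–0.992). *rps6ka4*, named for a kinase that in mammals acts on chromatin in stress signalling, had 195 UMIs and a ratio of 1.69 (1.04–2.62) in cluster 3. *rps6kb1a*, named for the kinase that phosphorylates ribosomal protein S6 under TOR in mammals, had 32 UMIs, with 0 to 10 in any cluster. The others with at least 20 UMIs were *rps6ka5* with 79, *rps6kc1* with 65, *rps6kal* with 60 and *rps6ka1* with 41.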

How the data were processed

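Counts are raw UMI counts per feature and barcode, deposited by the authors; Cell Ranger 3.1.0 is named in the submitters' processing notes, while no source used here states the genome build or alignment settings. The authors also deposited cluster numbers, class names, a kept mark and a score named cyto, read as a rank only. Tested on every barcode, the kept mark equals more than 300 and fewer than 2500 genes.

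Members and lists were chosen with earlier results of these data known. Structural features were set apart from S6 kinases and paralogue-like names by symbol. UMIs were summed per cluster and set against all other kept nuclei, with exact conditional intervals for ratios, exact Poisson intervals for CPM and Clopper-Pearson intervals for shares. With 1 pooled sample there is no test. Folds of members needed 20 UMIs, and 0 counts were bounded with 3 UMIs. Named were the 20 members with the most UMIs, the highest and lowest member per cluster from 50 UMIs, S6 kinases and copies from 20 UMIs, and the 3 members with the most UMIs of other lists; not all are printed, and any other gene was picked with its values in view. Of 8 ribosomal protein names outside the pattern 7 matched. Nuclei were not filtered for doublets; Scrublet (scanpy 1.11.5, expected rate 0.06) marked 1, which serves as an alternative. Alternatives were all 93 features, leaving out *rpl17*, each suffix, 500 to 1500 UMIs, leaving out the deepest 5%, means over nuclei, edgeR 4.0.16 TMM and DESeq2 1.42.0 size factors over cluster sums, other minimums and a 1.5-fold limit. Chosen after seeing the data were medians and leaving out nuclei of high share. The fold steps were tested on simulated data over 5511 features, in which 100 of 100 features raised 4-fold in cluster 0 and 97 of 100 in cluster 8 were recovered at 2-fold, and 96 and 66 of 100 lowered ones. Other software was R 4.3.3, matplotlib 3.10.9, scipy 1.17.1 and Python 3.11.15.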

Additional observations from a re-analysis of the deposited data

Results flagged for a closer look

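The barcodes that the authors removed entered no comparison above, and they held structural ribosomal protein UMIs. The 44 barcodes with 300 genes or fewer had a structural share of 5.07% (4.75–5.40), against 1.57% in kept nuclei. A single one of them, with 171 genes, held 355 structural UMIs among 551, a share of 64.4%, and without it the share of the set was 3.18%. The median of the 44 was 1.67%, and 6 of them were over 5%. The 41 barcodes with 2500 genes or more had a share of 1.63% (1.60–1.66) and a median of 1.40%, and the deepest, with 134092 UMIs, stood at 1.46%.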

How the results depend on the processing

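No paired analysis was possible because both jaws form 1 pooled sample and no test was run. Ratios of the summed structural share below 1 in clusters 4 to 7 and 9 to 11 stayed below 1 under all 13 alternatives each. Alternatives that differed are given with the cluster in parentheses, and the cause was not tested. Cluster 8 turned from above to below 1 with suffix 2 alone (0.560), 500 to 1500 UMIs (0.563), the mean over nuclei (0.939), the median (0.672), TMM sizes (0.992), without the highest nucleus per cluster (0.782) and without nuclei over 5% (0.730), and was 1.47 with suffix 1 alone. Cluster 3 turned below 1 with suffix 2 alone (0.926, with an interval that spans 1), and cluster 2 without nuclei over 5% (0.945). With nuclei of 500 to 1500 UMIs ratios were 1.13 (0), 1.42 (2), 0.928 (4), 0.702 (5), 0.758 (10) and 0.458 (11). As means over nuclei they were 1.04 (0), 0.937 (1), 1.30 (2) and 0.861 (4), and as medians 1.29 (0), 1.07 (2), 1.45 (3), 0.966 (4), 0.797 (7) and 0.542 (10). TMM sizes gave 1.33 (0), 1.04 (1), 1.16 (2), 1.26 (3), 0.361 (9), 0.452 (10) and 0.414 (11), and DESeq2 sizes 1.00 (0), 0.944 (1), 0.917 (4), 0.826 (5) and 0.932 (6). Without the highest nucleus per cluster they were 1.16 (0), 1.12 (2), 0.853 (4) and 0.807 (7), and without nuclei over 5% 1.24 (0), 1.25 (3), 0.912 (4), 0.811 (5) and 0.882 (6). Suffix 1 alone gave 0.838 (1), 1.05 (2), 1.59 (3), 0.685 (5) and 0.899 (10), and suffix 2 alone 1.22 (1), 1.53 (2), 0.873 (5), 0.763 (6), 0.385 (10) and 0.731 (11). Over nuclei of suffix 2 alone, rho of the share was 0.0384 with depth and 0.106 with cyto rank. Pairs of a structural member and a cluster past 2-fold numbered 8 higher and 29 lower of 648, or 1.23% and 4.48%, beside 10.2% and 17.8% of all pairs. With a minimum of 10 UMIs 10 were higher and 29 lower, beside 12.1% and 14.5%. With no UMI minimum 13 were higher and 29 lower, beside 14.3% and 9.22%. Past 1.5-fold 61 were higher and 90 lower, or 9.41% and 13.9%, beside 19.9% and 29.0%. Using all 93 features, or leaving out *rpl17*, the Scrublet call or the deepest 5% of nuclei, moved none of these ratios outside its interval. With these changes and thinning, rho over all nuclei ran from -0.0757 to -0.0413 with depth and from 0.0285 to 0.0491 with cyto rank. At the depth of the smallest clusters most members had too few UMIs to be placed.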

Other observations

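Beside the lists above, 6 transcripts that in mammals also begin with a TOP motif or are grouped with such transcripts were summed; the list was chosen after values were seen and gets no test. *tpt1*, *pabpc1a*, *btf3*, *hnrnpa1a*, *nap1l1* and *npm1a*, which the ribosome biogenesis list also holds, together had a ratio of 4.86 (3.93–5.96) between nuclei of over 5% structural share and the others. *tpt1*, which codes for a translationally controlled protein, stood at 6.36 (4.33–9.07) and *pabpc1a*, which codes for the poly(A) binding protein, at 4.92 (3.40–6.92), while *nap1l1*, a histone chaperone gene, stood at 1.04 (0.125–3.85). The 13 features named APK84_gp, which no source used here annotates, had a ratio of 1.64 (1.47–1.84), or 4.19 (3.34–5.21) among Immune and 1.60 (1.39–1.83) among Epithelial nuclei. In the 7 bins of rising structural share they made up 0.255%, 0.572%, 0.941%, 1.13%, 1.12%, 1.36% and 1.39% of UMIs outside the structural features. Their Spearman rho with the structural share was 0.308 over the 1296 nuclei, a description without a p. Between clusters their ratio ran from 0.0921 (0.0537–0.148) in cluster 9 to 1.97 (1.87–2.07) in cluster 3, the clusters of lowest and highest structural share. The clusters between did not keep that order. In cluster 2, with a structural ratio of 1.23, the APK84_gp ratio was 0.297 (0.269–0.326). In cluster 4, with a structural ratio of 0.802, it was 1.91 (1.82–2.01). A second feature named *RPS19* had 5 UMIs, all in 2 Mesenchymal nuclei, and was named after its values were seen.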
